A study of Homo sapiens with 21 samples.

Results

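Interferon-stimulated genes were followed as a set of 9: the RNA sensors DDX58 and IFIH1, the transcription factor IRF1, and the effectors IFIT1, IFIT2, IFIT3, ISG15, MX1 and OAS1. They were chosen by symbol from the deposited expression values, in which all 9 varied, out of 19694 genes that varied and 23368 that were listed. RNA was sequenced from hTERT-HPNE, an immortalized, non-transformed human pancreatic cell line. The 21 libraries formed 7 groups with 3 biological replicates in each. One group was untreated (time 0). Its libraries are titled as the 0 h point of the H2O2 series, and NCS has no 0 h group of its own. The other groups were cells harvested 4, 8 or 24 h after 300 µM H2O2, an oxidant, or 400 ng/ml NCS (neocarzinostatin), a radiomimetic agent that cuts both DNA strands. Treated cells also received fresh medium when the agent was added and were harvested later than the untreated cells, so the agent, the medium change and the time in culture cannot be told apart in comparisons with untreated cells. H2O2 and NCS were compared with each other at the same time, where these are shared. Values are rLog values, normalised counts on a log2 scale with differences shrunk, most strongly for genes with few reads. Sequencing depth is unknown for these values, and levels were not compared between genes because the values are not per length.

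Type I interferons are released by cells that sense foreign or misplaced nucleic acid. They bind a surface receptor whose kinases phosphorylate STAT proteins, among them STAT2, which join IRF9 and bind interferon-stimulated response elements (ISREs) in the promoters of target genes. A different element, the gamma-activated site (GAS), is bound by STAT dimers without IRF9. The products of these genes block viral RNA and protein synthesis, and several of them, among them the sensors, can raise the response further. DNA damage can also switch on such genes, through DNA in the cytosol and through stress-activated transcription factors.

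Promoters of the members hold the letters of these elements, and they are shown because 7 members share ISRE letters while IRF1 has GAS letters without them. Windows were read from RefSeq promoters of GRCh38.p14, 250 bases before to 50 bases after the transcription start, in the direction of transcription (for IFIT3 and MX1, which have several starts, the first listed with a match). Each window surrounds the match nearest the start. The promoter used for IFIT3 held 2 matches and that of IFIH1 held 3, of which only 1 each lies in the window shown. Capitals mark GAAANNGAAA or GAAANGAAA (the ISRE letters with 2 or 1 free bases, searched on both strands, where overlapping matches form 1 run) and, for IRF1, TTCNNNGAA, which reads the same on both strands.
IFIT1, chr10:89392495-89392554, plus strand: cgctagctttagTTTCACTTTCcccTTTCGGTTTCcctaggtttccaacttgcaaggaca
IFIT3, chr10:89327850-89327909, plus strand: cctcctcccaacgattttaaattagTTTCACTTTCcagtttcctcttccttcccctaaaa
ISG15, chr1:1013359-1013424, plus strand: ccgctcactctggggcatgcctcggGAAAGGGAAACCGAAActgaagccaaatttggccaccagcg
MX1, chr21:41420539-41420603, plus strand: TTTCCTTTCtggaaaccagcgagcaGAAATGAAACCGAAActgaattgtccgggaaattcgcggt
OAS1, chr12:112906920-112906978, plus strand: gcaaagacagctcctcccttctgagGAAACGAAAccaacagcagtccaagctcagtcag
IFIH1, chr2:162318671-162318730, minus strand: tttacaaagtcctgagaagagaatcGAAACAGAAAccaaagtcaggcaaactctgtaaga
DDX58 (RIGI in RefSeq), chr9:32526366-32526424, minus strand: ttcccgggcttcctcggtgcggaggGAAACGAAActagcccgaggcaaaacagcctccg
IRF1, chr5:132490864-132490922, minus strand: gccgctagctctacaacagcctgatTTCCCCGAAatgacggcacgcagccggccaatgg
Of 35116 RefSeq promoters of this length, 3.57% held the letters with 2 free bases, 3.12% those with 1, 6.40% either, and 7.66% the GAS letters. GAS letters were also found once each in promoters of MX1 and OAS1. These matches describe the sequence and are not measurements of binding. IFIT2, IFIT3 and IFIT1 are close relatives that lie in 1 gene cluster on chromosome 10, and how reads shared by relatives were counted is not given in the sources used here.

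Against untreated cells, IFIT genes and DDX58 were lower 4 h after H2O2, and MX1 and ISG15 were higher 24 h after either agent. At 4 h of H2O2, IFIT1, IFIT2, IFIT3 and DDX58 were lower and ISG15 was higher (adjusted p under 0.05, limma over all varying genes). That is 4 of 9 members lower, beside 19.7% of all genes, and 1 higher, beside 26.2%. At 8 h of H2O2, IRF1 and IFIT2 were higher and DDX58 was lower, 2 members beside 18.8% of genes and 1 member beside 18.6%. At 24 h of H2O2, MX1, IRF1, ISG15, IFIH1 and IFIT2 were higher, 5 of 9 beside 20.2% of genes, with 19.9% of genes lower. The median difference of the 9 members was -0.12 at 4 h, then 0.10 (8 h) and 0.23 (24 h). The median over all genes was 0.00 each time.

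At 4 h of NCS, IRF1 was higher and IFIT1 lower, 1 member in each direction beside 7.47% of genes higher and 9.72% lower. At 8 h of NCS, DDX58 was higher, 1 of 9 beside 10.5% of genes, with 13.3% of genes lower. At 24 h of NCS, MX1, ISG15 and DDX58 were higher, 3 of 9 beside 19.6% of genes, with 18.4% lower. IFIT2 and IFIH1 were also called there, 5 of 9 in all, with library medians aligned or only genes with a mean of at least 5 tested. The median member difference was 0.04, 0.03 and 0.18 at the 3 times. At 8 h of both treatments and at 4 h of NCS the members' counts were near the shares of all genes. The 6 comparisons share the untreated libraries.

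Set against NCS at the same time, H2O2 gave lower DDX58, IRF1 and IFIT3 at 4 h, 3 of 9 members beside 18.0% of genes, with 26.3% of genes higher. At 8 h, IRF1 and IFIT2 were higher after H2O2 than after NCS (2 of 9 beside 18.7% of genes) and DDX58 was lower (1 of 9 beside 15.4%). At 24 h, IRF1 was higher (1 of 9 beside 11.0% of genes), and DDX58 and IFIT1 were lower (2 of 9 beside 10.9%). The median member difference between H2O2 and NCS at 24 h was 0.01. Between 4 and 24 h within the H2O2 series, 7 members rose, all but IFIT1 and OAS1, beside 23.1% of genes higher and 32.4% lower. Between the same times of NCS, IFIT1, IFIT2, IFIT3, ISG15, MX1 and DDX58 rose, 6 of 9 beside 19.5% of genes, and IRF1 fell, 1 of 9 beside 18.8%. The change between 4 and 24 h was more positive in H2O2 than in NCS for IRF1, IFIT3 and IFIH1, 3 of 9 beside 16.6% of genes, with 22.7% of genes changed the opposite way. The largest absolute difference of any member in these 12 comparisons was 0.62 on the log2 scale, below the limit of 1 that the study states.

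**Figure D1:**
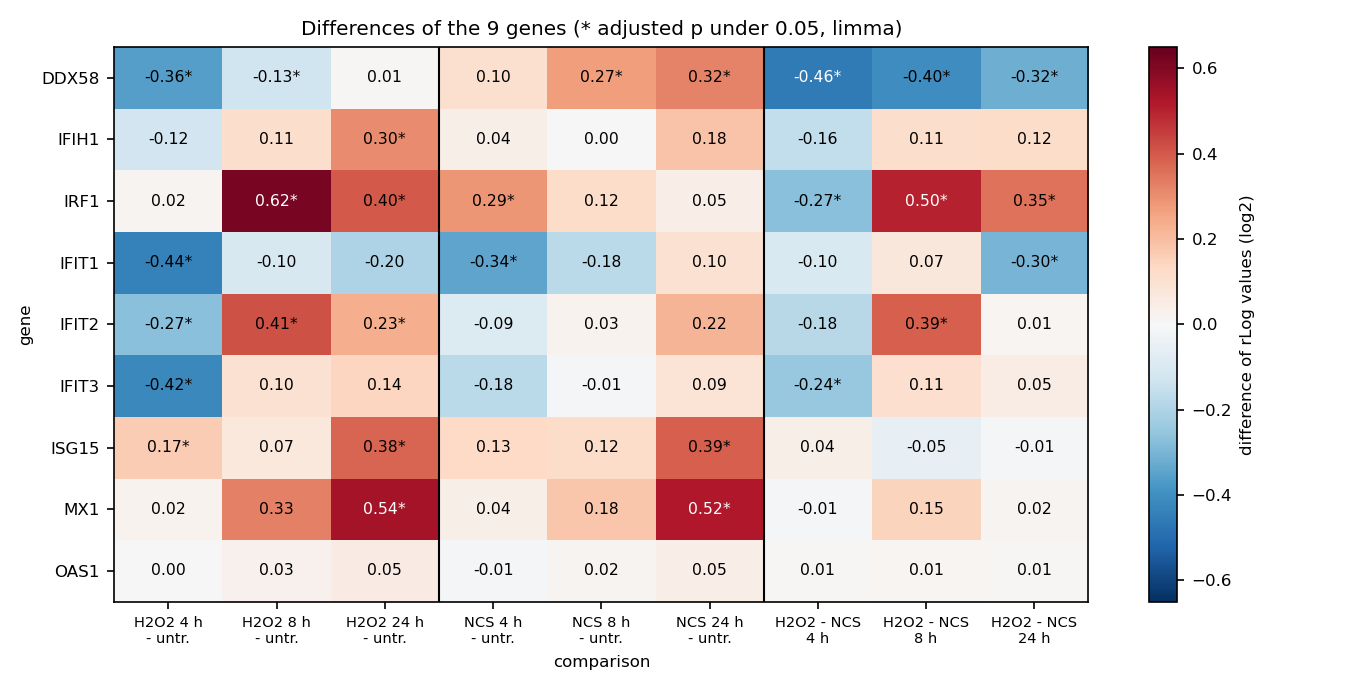
Differences of the 9 genes between group means of rLog values (log2 scale, 3 libraries a group), by gene in rows and comparison in columns. Asterisks mark an adjusted p under 0.05 (limma). The most negative difference is that of DDX58 for H2O2 against NCS at 4 h (-0.46), and the most positive of those drawn is that of IRF1 at 8 h of H2O2 (0.62). Comparisons between times are not drawn.

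The sensors recognise RNA in the cytosol. DDX58 encodes RIG-I, a helicase that binds short double-stranded RNA with a 5′ triphosphate and signals through MAVS. DDX58 measured 9.39, 9.31 and 9.32 in the untreated libraries. After H2O2 it measured 8.97, 9.02 and 8.96 (4 h), 9.14, 9.25 and 9.24 (8 h), and 9.33, 9.27 and 9.44 (24 h). After NCS the values were 9.46, 9.42 and 9.44 (4 h), 9.61, 9.61 and 9.62 (8 h), and 9.72, 9.60 and 9.68 (24 h). Every H2O2 library at 4 and 8 h lay below every untreated library, and every NCS library at any time lay above them. The 4 h H2O2 group was thus the lowest, followed by H2O2 at 8 h, then by untreated cells, H2O2 at 24 h and NCS at 4 h, whose neighbours in that order overlapped, and last by NCS at 8 and 24 h, which overlapped each other. Against untreated cells DDX58 fell by 0.36 at 4 h of H2O2 (SE 0.04, adjusted p = 7.89e-07, limma) and, 8 h after H2O2, by 0.13 (adjusted p = 0.0139). After 8 h of NCS it was higher by 0.27 (adjusted p = 4.47e-05) and after 24 h by 0.32 (adjusted p = 2.32e-06), and it was 0.10 above untreated at 4 h (adjusted p = 0.0978). The difference between treatments was the same in sign at each time, with H2O2 minus NCS at -0.46, -0.40 and -0.32 at the 3 times (adjusted p = 3.46e-08, 4.24e-07 and 1.1e-05). Between 4 and 24 h this difference changed by 0.14 (adjusted p = 0.0541). That change was called with a mean of at least 5 (0.0485) and in some fits that left out a library, such as H2O2 24 h replicate 2 (0.18, adjusted p = 0.0164). The fall at 8 h of H2O2 was not called without untreated replicate 1 (-0.11, adjusted p = 0.0699), without H2O2 8 h replicate 1 (-0.10, adjusted p = 0.09) or when only the groups compared were fitted (adjusted p = 0.0591).

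IFIH1 encodes MDA5, the sensor of long double-stranded RNA that uses the same adaptor. IFIH1 measured 5.84, 5.77 and 6.01 in untreated cells. After H2O2 it was 5.84, 5.63 and 5.78 (4 h), 6.03, 5.83 and 6.10 (8 h), and 6.16, 6.14 and 6.24 (24 h). After NCS it was 5.95, 5.86 and 5.94 (4 h), 5.83, 5.85 and 5.94 (8 h), and 6.01, 6.07 and 6.10 (24 h). The 3 libraries at 24 h of H2O2 stood above all other libraries, and the remaining groups overlapped their neighbours in rank. IFIH1 was 0.30 higher at 24 h of H2O2 than in untreated cells (SE 0.07, adjusted p = 0.00207, limma). At 24 h of NCS the difference was 0.18 (adjusted p = 0.0539), which was called with library medians aligned (0.0252) and with a mean of at least 5 (0.0239). H2O2 minus NCS was -0.16, 0.11 and 0.12 at the 3 times (adjusted p = 0.0815, 0.271 and 0.295). IFIH1 at 4 h of H2O2 was -0.12 from untreated cells (adjusted p = 0.185). Under quantile normalization that difference was called (-0.23, adjusted p = 0.0151), as was H2O2 minus NCS at 4 h (-0.26, adjusted p = 0.00785). The change between 4 and 24 h differed between treatments by 0.28 (SE 0.10, adjusted p = 0.0364). That call was lost without H2O2 4 h replicate 2 (0.22), H2O2 24 h replicates 1 (0.29) or 3 (0.25), NCS 4 h replicates 1 (0.26) or 3 (0.27), or NCS 24 h replicates 1 (0.26) or 2 (0.29), each left out alone, with adjusted p between 0.0515 and 0.102.

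IRF1 is a transcription factor that is itself induced by interferon and through NF-κB and binds ISRE-like elements. IRF1 measured 8.40, 8.38 and 8.39 in untreated cells, the narrowest spread of its 7 groups. After H2O2 it measured 8.34, 8.43 and 8.44 (4 h), 9.03, 8.87 and 9.12 (8 h), and 8.78, 8.75 and 8.83 (24 h). After NCS it measured 8.76, 8.63 and 8.64 (4 h), 8.49, 8.52 and 8.51 (8 h), and 8.43, 8.52 and 8.35 (24 h). The highest libraries in the NCS series were those at 4 h, and the highest in the H2O2 series were those at 8 h. Untreated cells, H2O2 at 4 h and NCS at 24 h overlapped, and the 8 h H2O2 libraries lay above all others. Against untreated cells IRF1 was higher by 0.62 at 8 h of H2O2 (SE 0.05, adjusted p = 5.34e-08, limma) and remained 0.40 higher at 24 h (adjusted p = 6.9e-06). The differences after 4, 8 and 24 h of NCS were 0.29 (adjusted p = 0.000847), 0.12 and 0.05, of which only the first passed. H2O2 was below NCS at 4 h by -0.27 (adjusted p = 0.000477) and above it at 8 h (0.50, adjusted p = 1.15e-06) and 24 h (0.35, adjusted p = 9.36e-05). Between 4 and 24 h IRF1 rose by 0.38 in H2O2 and fell by 0.24 in NCS, and this difference of 0.62 had an adjusted p of 4.27e-06. IRF1 calls held when each of the 21 libraries was left out.

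**Figure D2:**
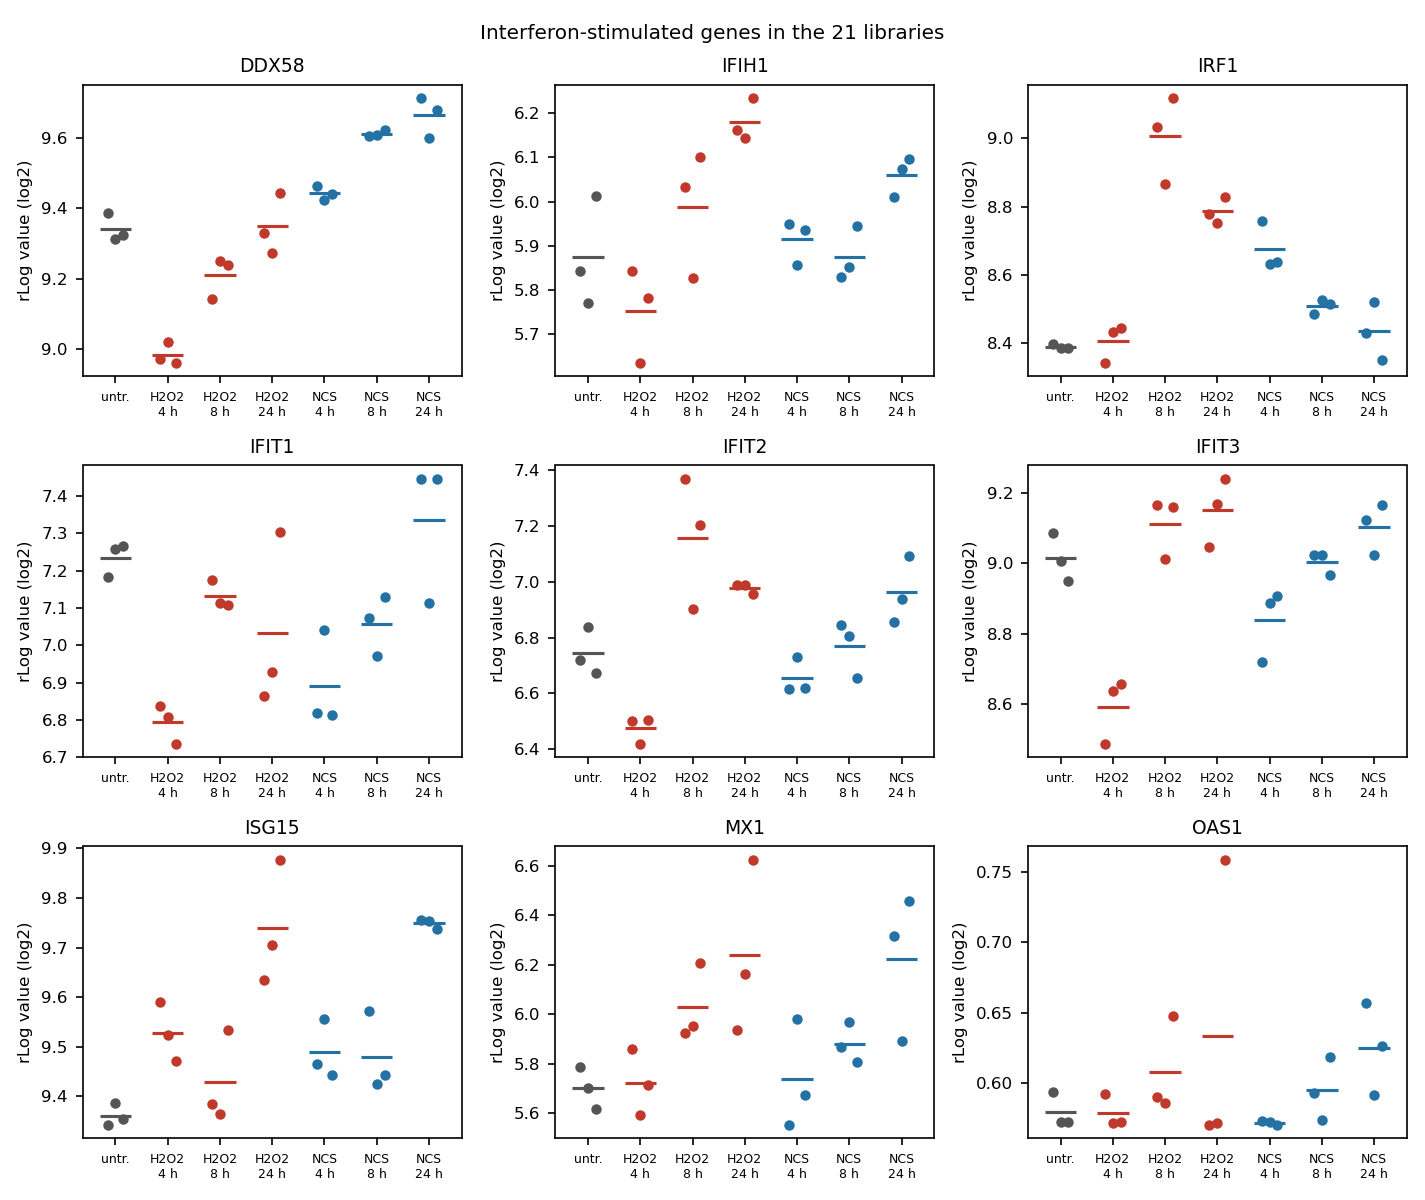
rLog values (log2 scale, vertical axis, a separate range for each gene) of the 9 genes in the 7 groups (horizontal axis), with 1 point a library and a line at the mean of 3 libraries. DDX58 is lowest in the 4 h H2O2 libraries (8.96 to 9.02), IRF1 highest in the 8 h H2O2 libraries (8.87 to 9.12), and OAS1 stays between 0.57 and 0.76.

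The IFIT1 protein binds foreign 5′ RNA ends and holds back translation, and IFIT2 and IFIT3 assemble with it. IFIT1 measured 7.18, 7.26 and 7.27 in untreated cells. H2O2 libraries of IFIT1 read 6.84, 6.81 and 6.74 (4 h), 7.17, 7.11 and 7.11 (8 h), and 6.86, 6.93 and 7.30 (24 h). NCS libraries of IFIT1 read 6.82, 7.04 and 6.81 (4 h), 7.07, 6.97 and 7.13 (8 h), and 7.45, 7.11 and 7.45 (24 h). The libraries at 4 h of either treatment lay below all untreated libraries, and the 24 h groups spread widely, with 1 high library of 3 after H2O2 and 1 low library of 3 after NCS. IFIT1 fell by 0.44 at 4 h of H2O2 (SE 0.10, adjusted p = 0.00133, limma) and by 0.34 at 4 h of NCS (adjusted p = 0.022). The NCS call was lost without untreated replicate 2 or 3, or NCS 4 h replicate 1 or 3 (adjusted p between 0.0631 and 0.0912). At 24 h H2O2 was below NCS by -0.30 (adjusted p = 0.0362), although the groups overlapped. This call ended without H2O2 24 h replicate 1 (-0.22) or 2 (-0.25) or NCS 24 h replicate 1 or 3 (-0.25 each), with adjusted p between 0.147 and 0.186, without the mean-variance trend (0.0521) and when only the 2 groups were fitted (0.221). At 24 h of H2O2 IFIT1 was -0.20 from untreated cells (adjusted p = 0.125). It was called lower there with library medians aligned (-0.22, adjusted p = 0.0284), with a mean of at least 5 (adjusted p = 0.0459) and without replicate 3 of that group, the high library (-0.34, adjusted p = 0.00494). IFIT1 rose by 0.44 between 4 and 24 h of NCS (adjusted p = 0.00136), and the difference between these times of H2O2 was 0.24 (adjusted p = 0.051, and 0.0187 with library medians aligned).

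IFIT2 measured 6.72, 6.84 and 6.67 in untreated cells. With H2O2, IFIT2 stood at 6.50, 6.42 and 6.51 (4 h), 7.37, 6.90 and 7.20 (8 h), and 6.99, 6.99 and 6.96 (24 h). With NCS, IFIT2 stood at 6.61, 6.73 and 6.62 (4 h), 6.85, 6.81 and 6.66 (8 h), and 6.86, 6.94 and 7.09 (24 h). The 4 h H2O2 libraries were below all others, and the 8 and 24 h H2O2 libraries were above all untreated ones. IFIT2 fell by 0.27 at 4 h of H2O2 (SE 0.09, adjusted p = 0.0188, limma), a call lost without untreated replicate 2 (-0.22, adjusted p = 0.0837) or H2O2 4 h replicate 2 (-0.24, adjusted p = 0.0663). It was 0.41 higher at 8 h of H2O2 (adjusted p = 0.001) and 0.39 above NCS at that time (adjusted p = 0.00202), with adjusted p of 0.0513 and 0.0666 when only the groups compared were fitted. After 24 h of H2O2 the difference was 0.23 (adjusted p = 0.0435). That last call was lost in 11 of the 21 fits that left out a library (adjusted p up to 0.144): untreated replicate 1 (0.22) or 3 (0.20), any H2O2 24 h replicate (0.23, 0.23 and 0.24), and H2O2 4 h replicates 1 and 3, NCS 4 h replicates 1 and 3, NCS 8 h replicate 2 and NCS 24 h replicate 2 (0.23 each). It was also lost under quantile normalization (adjusted p = 0.0641) and without the mean-variance trend (0.056). IFIT2 at 24 h of NCS was 0.22 above untreated cells (adjusted p = 0.0615, and 0.0203 with library medians aligned). Between 4 and 24 h IFIT2 rose by 0.50 in H2O2 and 0.31 in NCS, the latter not called without NCS 24 h replicate 3 (0.24, adjusted p = 0.0589).

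IFIT3 measured 9.09, 9.01 and 8.95 in untreated cells. IFIT3 after H2O2 was 8.49, 8.64 and 8.66 (4 h), 9.17, 9.01 and 9.16 (8 h), and 9.05, 9.17 and 9.24 (24 h). IFIT3 after NCS was 8.72, 8.89 and 8.91 (4 h), 9.02, 9.02 and 8.97 (8 h), and 9.12, 9.02 and 9.17 (24 h). The 4 h H2O2 libraries were lowest, the 4 h NCS libraries came next, and the other 5 groups overlapped. IFIT3 fell by 0.42 at 4 h of H2O2 (SE 0.06, adjusted p = 2.05e-05, limma), and was -0.18 from untreated at 4 h of NCS (adjusted p = 0.0622, and 0.0176 with library medians aligned). H2O2 was below NCS by -0.24 at 4 h (adjusted p = 0.00358). It rose between 4 and 24 h by 0.56 in H2O2 and by 0.27 in NCS, and these changes differed by 0.29 (adjusted p = 0.013, and 0.0843 under quantile normalization). At 24 h IFIT3 was 0.14 above untreated cells after H2O2 and 0.09 after NCS, and neither difference passed, although the former was called under quantile normalization (0.18, adjusted p = 0.0368) and with a mean of at least 5 (0.0391).

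ISG15 encodes a ubiquitin-like protein that is attached to other proteins and is also secreted. ISG15 measured 9.34, 9.39 and 9.35 in untreated cells. ISG15 in H2O2-treated cells was 9.59, 9.52 and 9.47 (4 h), 9.38, 9.36 and 9.53 (8 h), and 9.63, 9.70 and 9.88 (24 h). ISG15 in NCS-treated cells was 9.47, 9.56 and 9.44 (4 h), 9.57, 9.42 and 9.44 (8 h), and 9.76, 9.75 and 9.74 (24 h). The 24 h libraries of both treatments lay above all other libraries and overlapped each other. ISG15 was higher by 0.38 at 24 h of H2O2 (SE 0.06, adjusted p = 1.95e-05, limma) and by 0.39 at 24 h of NCS (adjusted p = 1.55e-05). It was also 0.17 higher at 4 h of H2O2 (adjusted p = 0.0212), where the IFIT genes and DDX58 were lower. That call was lost without untreated replicate 1 or 3 (0.16 each) or H2O2 4 h replicate 1 (0.14), with adjusted p between 0.0518 and 0.0927. H2O2 and NCS differed by 0.04, -0.05 and -0.01 at the 3 times, none of which passed the test.

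MX1 encodes a dynamin-like GTPase that traps viral nucleocapsids. MX1 measured 5.79, 5.70 and 5.62 in untreated cells. MX1 values after H2O2 were 5.86, 5.59 and 5.72 (4 h), 5.93, 5.95 and 6.21 (8 h), and 5.94, 6.16 and 6.62 (24 h). MX1 values after NCS were 5.55, 5.98 and 5.67 (4 h), 5.87, 5.97 and 5.81 (8 h), and 6.32, 5.89 and 6.46 (24 h). MX1 had the widest spread among replicates, and each group overlapped the next in rank, although all 24 h libraries lay above all untreated ones. At 8 h of H2O2 the difference from untreated cells was 0.33 (adjusted p = 0.119), called with library medians aligned (0.0389), a mean of at least 5 (0.0346) or only the groups compared (0.0434). The difference was 0.54 at 24 h of H2O2 (SE 0.16, adjusted p = 0.00942, limma) and 0.52 at 24 h of NCS (adjusted p = 0.0125). Replicate 3 of H2O2 at 24 h, which was above its group mean for 8 of 9 members, was 0.38 above it for MX1. Without that library the difference was 0.35 (adjusted p = 0.0778) and the rise between 4 and 24 h of H2O2 was 0.33 in place of 0.52 (adjusted p = 0.0754). When only the groups compared were fitted, the H2O2 difference had an adjusted p of 0.0544 and the H2O2 rise one of 0.0532. The NCS difference lost its call without NCS 24 h replicate 1 (0.47, adjusted p = 0.0508) or 3 (0.40, adjusted p = 0.0787). The rise of 0.49 between 4 and 24 h of NCS lost it without NCS 4 h replicate 1 (0.39) or 3 (0.45) or NCS 24 h replicate 1 (0.44) or 3 (0.37), with adjusted p between 0.0619 and 0.11, and at 0.0644 when only the groups compared were fitted. H2O2 and NCS differed by 0.02 at 24 h.

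OAS1 encodes an enzyme that makes the second messenger for RNase L. OAS1 lay between 0.57 and 0.59 in untreated cells, and between 0.57 and 0.76 over all 21 libraries. The highest library was replicate 3 of H2O2 at 24 h, at 0.76, where the other 2 libraries of that group measured 0.57. With so low a level, rLog values are held close together, and every group overlapped its neighbour in rank. The group means spanned 0.06, and the smallest adjusted p of OAS1 over the 12 comparisons was 0.188 (limma, largest difference 0.05). The 24 h libraries of NCS did not overlap those at 4 h, a difference of 0.05 (adjusted p = 0.262). That difference was called with library medians aligned (0.07, adjusted p = 0.0468), with only the groups compared (0.0367) and without replicate 3 of H2O2 at 24 h (0.0186). Without that library OAS1 was also called at 24 h of NCS against untreated cells (0.05, adjusted p = 0.0426), and under quantile normalization at 24 h against 4 h of H2O2 (0.10, adjusted p = 0.0322). Calls for OAS1 thus rested on differences no larger than 0.10 and on the setting.

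Upstream of these genes, interferon transcripts were near or at the bottom of the scale. Of 21 listed ligand genes, 15 were listed at 0 in every library, among them IFNB1. The other 6 varied at low values. At 4 h of H2O2, 3 of these 6 passed the test higher, beside 26.2% of all genes. The differences there were 0.14 for IFNE and 0.04 for IFNA5. In the other comparisons with untreated cells the smallest adjusted p among the 6 genes (limma) was 0.158, for IFNE at 24 h of NCS.

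The factors that bind the ISRE moved with time in both treatments. STAT2 measured 11.13, 11.12 and 11.11 in untreated cells. STAT2 was 10.76, 10.77 and 10.76 at 4 h of H2O2, 11.12, 11.13 and 11.11 at 8 h, and 11.57, 11.61 and 11.66 at 24 h. After NCS it measured 10.90, 11.00 and 11.00 (4 h), 11.32, 11.33 and 11.37 (8 h), and 11.75, 11.72 and 11.75 (24 h). All 4 h libraries lay below, and all 24 h libraries above, the untreated ones. STAT2 thus fell by 0.35 and 0.15 at 4 h of H2O2 and NCS (adjusted p = 2.56e-09 and 0.000274, limma) and was higher by 0.49 and 0.62 at 24 h (adjusted p = 1.18e-11 and 4.72e-13). IRF9 was higher by 0.52 at 24 h of H2O2 (adjusted p = 3.95e-07) and by 0.48 at 24 h of NCS (adjusted p = 1.28e-06), from 9.08 to 9.24 in untreated libraries to 9.64 to 9.77 at 24 h. At 4 h IRF9 was not called (mean 9.09 after H2O2 and 9.21 after NCS, beside 9.19 in untreated cells). At 8 h it was called higher after both agents (means 9.52 and 9.42). IRF2, which competes with IRF1 for its sites, fell by 0.46, 0.30 and 0.15 at 4, 8 and 24 h of H2O2 (adjusted p = 2.52e-06, 0.00027 and 0.0428). It fell by 0.23 and 0.20 at 8 and 24 h of NCS (adjusted p = 0.005 and 0.00793). At 4 h of NCS the mean of IRF2 was 8.44, beside 8.57 in untreated cells, and it was not called.

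**Figure D3:**
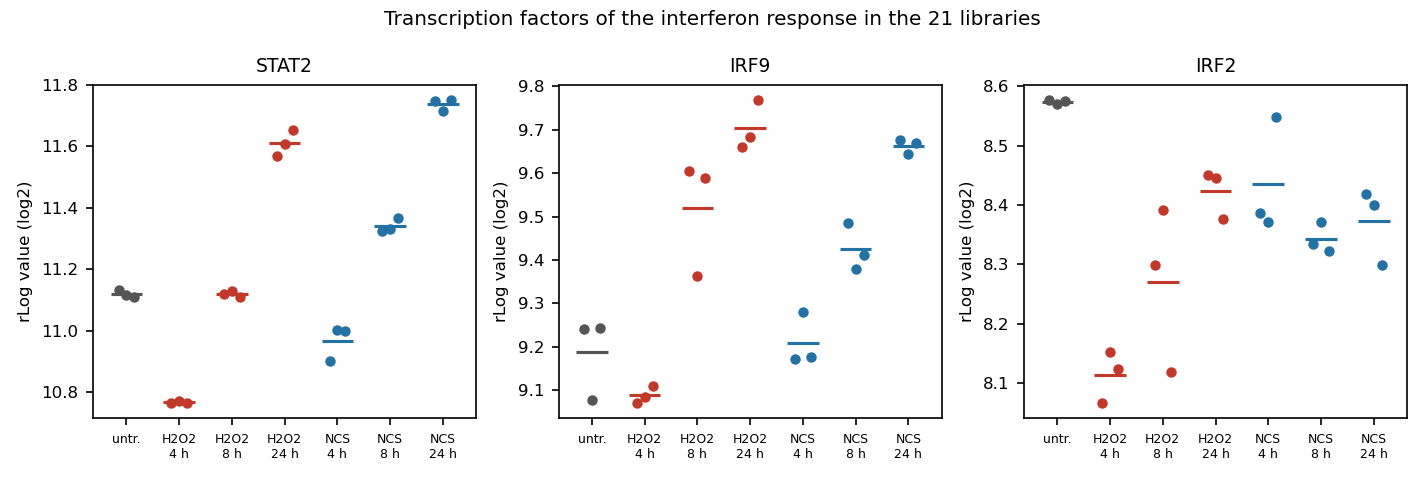
rLog values (log2 scale, vertical axis, a separate range for each gene) of STAT2, IRF9 and IRF2 in the 7 groups (horizontal axis), with 1 point a library and a line at the mean of 3 libraries. STAT2 lies at 10.76 to 10.77 at 4 h of H2O2, 11.11 to 11.13 in untreated cells and 11.72 to 11.75 at 24 h of NCS.

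Of 16 varying genes for interferon receptors and JAK-STAT signalling, 2 were higher and 6 lower at 4 h of H2O2 (beside 26.2% and 19.7% of all genes), with PIAS1, an inhibitor of STAT proteins, at -0.67. At 24 h of H2O2, 8 were higher and 1 was lower (beside 20.2% and 19.9%), and at 24 h of NCS 8 were higher and 2 lower (beside 19.6% and 18.4%). The shares of all genes at these times also apply to the lists that follow. Among 17 varying genes for nucleic acid sensing and adaptors, 1 was higher and 7 were lower at 4 h of H2O2, where MAVS, the adaptor of both RNA sensors, differed by -0.49 and TRAF6 by -0.36. By 24 h of H2O2, 7 were higher and 3 lower, with TRIM25, a ubiquitin ligase that activates RIG-I, at 0.59 and DHX58, a relative of the RNA sensors, at 0.42. At 24 h of NCS, 4 were higher and 3 lower, with DHX58 at 0.43 and TRIM25 at 0.15. TREX1, which degrades DNA in the cytosol, and MB21D1, which encodes the DNA sensor cGAS, were lower at 24 h of H2O2 (-0.61 and -0.36) and of NCS (-0.63 and -0.43). Of 11 genes for interferon regulatory factors and their partners, 5 were higher and 1 lower at 24 h of H2O2, and 4 were higher and 2 lower at 24 h of NCS.

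In 50 other interferon-stimulated genes, all of which varied, more were higher than lower at 24 h of both treatments. This list shares 4 genes with the sensing list, among them DHX58 and TRIM25, and 1 with the JAK-STAT list. At 4 h of H2O2, 9 were higher and 12 lower, 18.0% and 24.0% of the list beside 26.2% and 19.7% of all genes, with a median difference of 0.00. The most positive were ISG20, an RNA exonuclease, at 0.78 and BATF2 at 0.27, and the most negative were IFIT5 at -0.40 and EIF2AK2, the kinase PKR that halts translation, at -0.33. At 8 h, 16 were higher and 3 lower (32.0% and 6%, beside 18.8% and 18.6%, median 0.06), led by XAF1 at 0.69 and TAP1 at 0.59. At 24 h, 30 were higher and 5 lower (60.0% and 10.0%, beside 20.2% and 19.9%, median 0.17), led by TAP1, a peptide transporter of antigen presentation, at 1.01 and XAF1, a pro-apoptotic protein, at 0.93, with GBP1 at -0.32 and OAS3 at -0.27 as the most negative. After 4 h of NCS, 9 were higher and 4 lower, after 8 h 12 and 1, and after 24 h 24 and 3 (median 0.14). Those are 18.0% and 8.00%, 24.0% and 2.00%, and 48.0% and 6% of the list, beside 7.47% and 9.72%, 10.5% and 13.3%, and 19.6% and 18.4% of all genes. TRIM22, an antiviral ubiquitin ligase, was at 0.62, 0.94 and 0.96 at the 3 times of NCS, and TAP1 at 0.62, 0.71 and 0.62. TAP1 led at 4 h, and TRIM22 led at 8 and 24 h. TAP1 and TRIM22 are also known targets of p53. PLSCR1 was the most negative at 8 and 24 h of NCS (-0.38 and -0.37). Set against NCS, 8 of the 50 were higher and 16 lower after H2O2 at 4 h. Those are 16.0% and 32.0% of the list, beside 26.3% and 18.0% of all genes. The 8 h comparison gave 11 higher and 8 lower (22.0% and 16.0%, beside 18.7% and 15.4%), near the shares of all genes. The 24 h comparison gave 14 and 4 (28.0% and 8.00%, beside 11.0% and 10.9%).

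**Figure D4:**
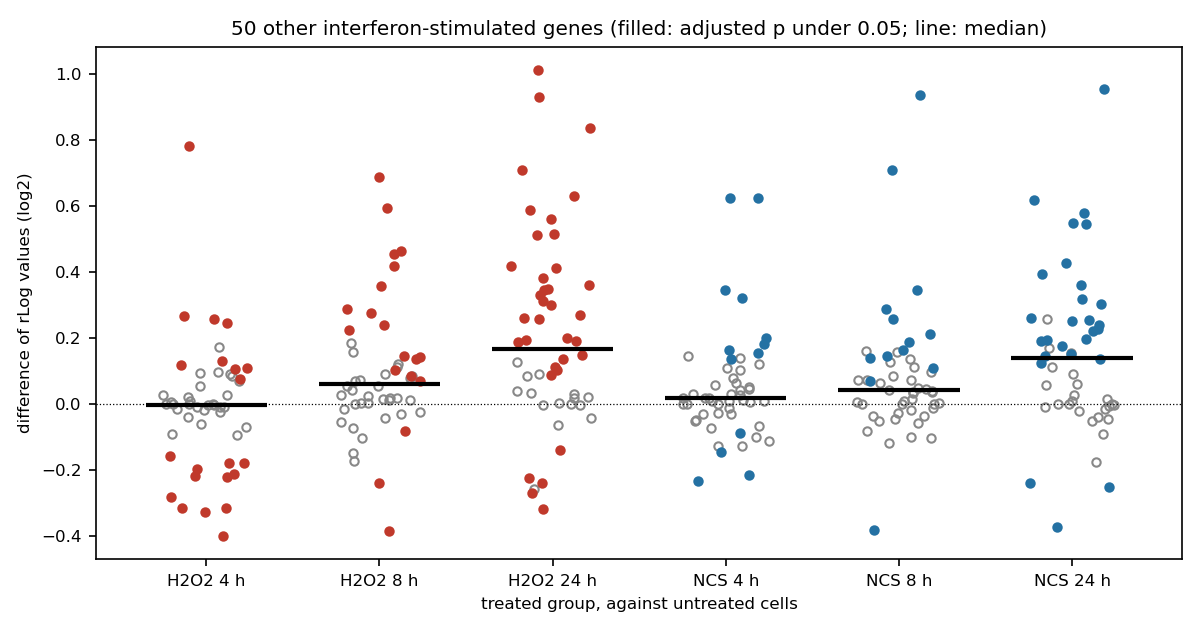
Differences of rLog values from untreated cells (log2 scale, vertical axis) of 50 other interferon-stimulated genes in the 6 treated groups (horizontal axis). Each point is 1 gene, filled where the adjusted p is under 0.05 (limma), and the bar is the median over the 50 genes, 0.00 at 4 h and 0.17 at 24 h of H2O2.

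Across the 7 group means, the genes most like each member were found by Pearson correlation among 3329 genes whose group means spanned more than 0.5. This is a description over 7 points that share libraries, the largest values of many. For MX1 they were DMBT1 (r = 0.978), PLAT (0.975) and IRF9 (0.975). For IFIT2 they were TNFRSF1A (0.996), FAM134C (0.983) and DNMBP (0.977), and for IFIT3 ZNF792 (0.992), SNX33 (0.986) and PLAG1 (0.983). The IFIT1 pattern was less closely matched, by UGCG (0.905), RSBN1 (0.892) and PPAP2B (0.859). Genes like DDX58 included SUOX (0.961) and MGC23284 (0.952), and IRF1 was most like BMPR1B (0.957), STXBP5 (0.938) and ZNF28 (0.93). The group means of ISG15, IFIH1 and OAS1 spanned 0.39, 0.43 and 0.06, so none were sought.

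Markers of the cell line were checked beside these results. VIM, COL1A1, CD44 and NES, mesenchymal and progenitor genes, had group means from 11.8 to 18.0. They were not constant: COL1A1 was -0.44, -0.39 and -0.38 and NES -0.13, -0.25 and -0.28 from untreated cells at 4, 8 and 24 h of H2O2 (all called, limma). After NCS the differences of COL1A1 were 0.05, 0.00 and 0.07 and those of NES 0.14, 0.00 and -0.05, of which only NES at 4 h was called. VIM was higher at 4 h of H2O2 (0.17), and lower at 24 h of H2O2 (-0.26) and of NCS (-0.16), and CD44 was higher at 8 and 24 h of H2O2 (0.13 and 0.12). The part of these shifts in the members' results was not tested. Of 8 duct epithelium markers, KRT19, CFTR and EPCAM had group means no higher than 0.65, while KRT18 lay between 11.4 and 11.8, KRT8 between 7.77 and 8.16, KRT7 between 6.74 and 7.05, SOX9 between 5.89 and 6.34 and CDH1 between 3.74 and 3.85. Of 6 immune markers, CD3E was listed at 0, PTPRC lay between 0.89 and 0.94 and CD14 between 2.53 and 2.65 in group means. CD68, which is not limited to immune cells, rose from 9.97 to 10.5 in group means and was highest at 24 h of NCS. ITGAM had its highest group mean, 5.35, at 4 h of H2O2, and its lowest was 3.60. The summed level of the 5 immune markers that varied, as a log2, ranged over 9.97 to 10.03 in untreated cells, 10.07 to 10.15, 9.98 to 10.14 and 10.13 to 10.23 at 4, 8 and 24 h of H2O2, and 9.99 to 10.05, 10.10 to 10.21 and 10.46 to 10.59 at the same times of NCS. It was thus highest at 24 h of NCS, where MX1, ISG15 and DDX58 were also high, and its part in those results was not tested. The sum was taken before the log2, so it mostly followed CD68 (group means 9.97 to 10.5, beside at most 5.35 for ITGAM). It therefore says little about the other immune markers. In bulk RNA, fewer cells of a type and less RNA per cell cannot be told apart.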

How the data were processed

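RNA from 21 libraries of hTERT-HPNE cells (7 groups of 3) was sequenced after TruSeq Stranded mRNA library preparation. The authors aligned reads with HISAT2, counted them with htseq-count and deposited log2 values made by the rLog transformation of DESeq2. The submitters' processing notes name hg19. Versions, annotation, strand setting and the treatment of shared reads are not given in the sources used here. The values hold no counts: sequencing depth is unknown, and intervals or floors that need it are not given. Library medians lay between 7.14 and 7.19.

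Genes at 0 throughout (3674) were dropped, and the other 19694 were fitted without further scaling, in 1 limma fit of the 7 groups (limma 3.58.1, R 4.3.3, mean-variance trend, 14 residual degrees of freedom) with Benjamini-Hochberg adjustment over all of them. The 12 comparisons were 6 with untreated cells, 3 of H2O2 with NCS, 2 of 24 h with 4 h and the difference of those 2. A call is an adjusted p under 0.05. Groups that do not overlap have a two-sided exact permutation p of 0.1, the smallest that 3 libraries against 3 allow. The p-values measure the spread between these biological replicates. The fit was tested on simulated data.

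The members and gene lists were chosen with earlier results of these data known. Every member is given in every group. A gene of another list is named where it is among the 2 most positive or 2 most negative calls of a comparison, and IRF9, STAT2, IFNB1 and IRF2 always. The 3 most similar genes are named for members whose group means span more than 0.5. Some genes that these rules name are not reported here. Promoter sequences came from RefSeq (GRCh38.p14), where 8 of 9 members matched (all but IFIT2). Of the other lists, 15 ligand genes and ZBP1 were at 0 and IFNLR1 was not matched by symbol. No coordinates were taken from hg19.

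Alternatives were quantile normalization, aligned library medians, no mean-variance trend, a mean of at least 5 (11681 genes), a difference over 0.58, only the groups compared, a replicate block and each library left out. Calculations outside R used Python 3.11.15 with pandas 2.3.3, numpy 2.4.6, matplotlib 3.10.9 and scipy 1.17.1.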

Additional observations from a re-analysis of the deposited data

Results flagged for a closer look

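These results are given because the effects of H2O2 and NCS differed by a test of the difference itself (limma, adjusted p under 0.05). For DDX58, H2O2 minus NCS was -0.46, -0.40 and -0.32 at 4, 8 and 24 h on the log2 scale, with the libraries of the treatments not overlapping at any of the 3 times. For IRF1 the values at these times were -0.27, 0.50 and 0.35, and the change of H2O2 minus NCS between 4 and 24 h was 0.62. For IFIT3 it was -0.24 at 4 h, with a change between 4 and 24 h of 0.29. For IFIT2 it was 0.39 at 8 h, for IFIT1 it was -0.30 at 24 h, where the libraries overlapped, and for IFIH1 the change between 4 and 24 h was 0.28. The IFIT1 call was lost in 4 and the IFIH1 call in 7 of the 21 fits that left out a library. The IFIT1 and IFIT2 calls were lost when only the groups compared were fitted. Without the mean-variance trend the IFIT1 call was lost, as was the call of the IFIT3 change under quantile normalization. Groups of 3 libraries were too small for a test of single outlying values.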

How the results depend on the processing

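The 45 calls of members kept their direction under every alternative run, and 903 of 945 fits that left out a library kept the call. In most of these fits the library left out was in none of the groups compared, so the difference itself could not change. The share kept is therefore higher than for libraries of the compared groups alone. With a difference over 0.58, 1 member was called higher at 8 h of H2O2 and 1 in the change between treatments (IRF1 both times), and 0 in the other comparisons with calls. With only the groups compared, 0 members were lower at 8 h of H2O2, 2 higher at 8 h of NCS, and against NCS 1 was higher at 8 h and 1 lower at 24 h, as also without the mean-variance trend (1). With library medians aligned or a mean of at least 5, 1 member was lower at 24 h of H2O2, 2 lower at 4 h of NCS and 5 higher at 24 h of NCS. With a library left out, higher and lower members numbered 0 to 1 and 3 to 4 at 4 h, 2 to 3 and 0 to 1 at 8 h, and 3 to 5 and 0 to 1 at 24 h of H2O2. For NCS they numbered 1 to 2 and 0 to 2 at 4 h, 1 and 0 at 8 h, and 2 to 5 and 0 at 24 h. Against NCS, 0 were higher and 3 to 5 lower at 4 h, 2 to 3 and 1 at 8 h, and 1 and 1 to 2 at 24 h. Between times they numbered 6 to 8 and 0 in H2O2, and 4 to 7 and 1 in NCS. The change between treatments gave 2 to 4 and 0 to 1. The deviations of same-numbered replicates had a mean correlation of 0.0274, against -0.0137 for different numbers, and in 0 of 11 comparisons was every pair over 0.1, so the numbers were not taken to pair the samples. As a hint from the data, 12 of 21 libraries correlated best with their own number. With the replicate block, IFIT2 at 24 h of H2O2 was not called (adjusted p = 0.0564), and IFIH1 was called at 24 h of NCS (0.0154) and against NCS at 4 h (0.0284). Other member calls were the same under the block. Scaling alternatives moved the median of all genes by at most 0.03. Low values such as those of OAS1 and the interferon ligands limit what could be detected.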
